A study of Homo sapiens with 40 samples.

Results

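The plasma cell programme was followed through 10 genes: IRF4, PRDM1, POU2AF1, ELL2, SDC1, TNFRSF17, CD38, CD27, JCHAIN and PIM2. They were chosen by name as genes of the plasma cell programme, with earlier results of these data known. All 10 were on the array, with 31 probes among the 15246 measured and 10 of the 4604 named genes. None of the 10 passed the test in any of 12 comparisons of course means or in the change with day. Across the 32 myeloma arrays, centred on their medians, the log ratio of IRF4 ran with that of MYC. PIM2 ran with PRDM1 there (rho = 0.63), though TNFRSF17 and JCHAIN ran closer (0.67). In SKMM1 repeat 1 and in the SKMM1 course against a control shRNA, the gene means of ELL2, PRDM1 and PIM2 were highest on day 4, with values that did not pass the test. SKMM1 repeat 3 differed, with PIM2 at its lowest, -1.24, on day 4.

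A plasma cell is an antibody-secreting B cell, and multiple myeloma is its malignancy. IRF4 drives the step from B cell to plasma cell together with PRDM1 (BLIMP-1), a repressor of the mature B cell programme, and myeloma cells stay dependent on IRF4 after transformation. The remaining genes serve transcription of antibody genes (POU2AF1, ELL2), the cell surface (SDC1, TNFRSF17, CD38, CD27), assembly of secreted antibody (JCHAIN) and survival signalling (PIM2).

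The study asked what caspase-10 does in myeloma, and profiled cells on 40 2-colour lymphochip arrays after doxycycline (20 ng/ml) had switched on a hairpin against CASP10. The myeloma lines carried shCasp10-3 (H929 and KMS12, 4 arrays each) or shCasp10-2 (SKMM1 on 12 arrays, H929 on 8, KMS12 on 4), induced for 24 to 120 hours, and each of these 32 arrays set induced cells (Cy5) against the same line uninduced (Cy3). In 4 further arrays SKMM1 with induced shCasp10-2 was set against SKMM1 induced to express a control shRNA. The B cell lymphoma lines OCI-Ly7 and OCI-Ly19, both with shCasp10-2, gave 2 arrays each at days 3 and 4 against uninduced cells. All lines had been transduced with a retroviral vector and selected with puromycin, and the labels do not say whether a line was a pool or a clone. No untransduced cells and no arm with doxycycline but no hairpin entered these comparisons, and effects of doxycycline and of the hairpin cannot be told apart outside the 4 control shRNA arrays.

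Values are the deposited log ratios, read as log2 of induced over reference (positive where induced cells held more). That reading follows from the labelled dyes and is likely, but no source gives the direction of the ratio or the base of the log. A ratio carries no level, so whether a line expressed a plasma cell marker at all could not be checked, and fewer cells with an RNA and less RNA per cell cannot be told apart. Array medians ran between -2.15 and 0.36. On 12 arrays, here called wide, over 10% of probes lay beyond a log ratio of 3 in either direction; 11 of these were myeloma arrays, and they included all 4 arrays of SKMM1 repeat 2. The mean profiles of SKMM1 repeats 2 and 3 opposed each other over 9681 features (Pearson r = -0.50, across features, which are not independent replicates), as did repeats 1 and 2 (r = -0.48), while repeats 1 and 3 correlated at 0.51. The same lines, hairpin and dyes are given for all 3 repeats, and values with the sign of repeat 2 or 3 turned are therefore given where they matter. The SKMM1 day 5 arrays labelled repeats 1 and 2 are counted in repeats 2 and 3 throughout, by runs of database numbers in their labels. The targeted gene, CASP10, had a log ratio below 0 in 7 of 8 myeloma courses, at -0.61 on average (95% CI -1.18 to -0.04, adjusted p = 0.682 by limma), and SKMM1 repeat 3 averaged 0.01. Without the wide arrays its average was -0.27 (95% CI -0.48 to -0.07, adjusted p = 0.272 by limma), and 6 of 7 course means were below 0. With the sign of SKMM1 repeat 2 turned the average was -0.25 (95% CI -0.88 to 0.38) in myeloma and 0.42 (95% CI -0.59 to 1.44) in SKMM1. On the 2 arrays labelled OCI-Ly7 with shCasp10-2 CASP10 was at 2.04 and 1.50 on days 3 and 4, against that label, and on those of OCI-Ly19 it was 0.12 and -0.24.

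The upstream sequences of IRF4, PRDM1 and PIM2 are shown because IRF4 leads the set and because PRDM1 and PIM2 moved together. Each run is 250 bases before a start site on the strand of the gene, from the RefSeq promoter table of GRCh38.p14, and capitals mark a match to a searched motif on either strand. IRF4 lies at chr6:391502-391751 on the plus strand, this PRDM1 start at chr6:106098691-106098940 on the plus strand, and PIM2 at chrX:48919025-48919274 on the minus strand.
IRF4: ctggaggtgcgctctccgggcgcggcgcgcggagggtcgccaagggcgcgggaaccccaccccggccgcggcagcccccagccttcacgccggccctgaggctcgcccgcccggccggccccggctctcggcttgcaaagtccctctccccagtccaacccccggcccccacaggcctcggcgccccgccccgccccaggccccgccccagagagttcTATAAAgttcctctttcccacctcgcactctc
PRDM1: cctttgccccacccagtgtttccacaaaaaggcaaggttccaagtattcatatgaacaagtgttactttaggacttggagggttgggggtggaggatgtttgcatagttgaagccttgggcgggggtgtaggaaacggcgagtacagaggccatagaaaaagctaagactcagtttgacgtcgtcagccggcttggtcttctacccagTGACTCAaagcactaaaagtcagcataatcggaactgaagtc
PIM2: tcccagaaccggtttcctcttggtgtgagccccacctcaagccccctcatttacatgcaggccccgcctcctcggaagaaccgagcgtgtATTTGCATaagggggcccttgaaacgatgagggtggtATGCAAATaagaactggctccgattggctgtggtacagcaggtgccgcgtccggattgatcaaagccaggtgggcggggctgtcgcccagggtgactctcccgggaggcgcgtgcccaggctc

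In IRF4 the capitals mark a TATA box, TATAAA, that began 32 bases before the start, and 10.7% of 35116 RefSeq promoters held these letters in the same window. In PRDM1 they mark an AP-1 site, TGANTCA, at 42 bases before the start, present in 6.57% of promoters. The window of the other PRDM1 start, at chr6:106086086-106086335, held none of the searched motifs. In PIM2 they mark 2 octamers, ATGCAAAT, the upstream one on the opposite strand, at positions -160 and -123 from the start, and 1.63% of promoters held one. The octamer is the site at which POU2AF1 acts with its POU partners. Of the 9 windows found for 7 of the 10 genes, JCHAIN and CD27 also held TGANTCA, CD38 held an ETS-IRF composite element (GGAA and GAAA with 2 bases between them, in 2.41% of promoters), and none held a tandem IRF element (GAAA and GAAA with 2 bases between them, in 3.02%). SDC1 had no match to any of these motifs, and POU2AF1, TNFRSF17 and ELL2 are named only. The matches are descriptions of the letters in these windows.

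The first question was whether induced hairpins moved plasma cell genes in myeloma at all. Each course (1 line, 1 hairpin, 1 repeat) was averaged over days 2 to 4, and the 8 course means were fitted with limma across all 9681 features with the 3 lines weighted equally. The log ratios of the 10 genes lay between -0.44 for ELL2 and 0.09 for JCHAIN, 7 of 10 below 0, with a median of -0.12 beside a median of -0.27 over all features, of which 81.3% were below 0. The test called 0 of 10 genes beside 0 of 9681 features (0%) in the myeloma response, and 0% likewise in SKMM1, H929 and KMS12 each, in the 3 differences between lines, between hairpins, against the control shRNA, between the 2 SKMM1 references, in lymphoma and in myeloma minus lymphoma. At an unadjusted p under 0.05, limma passed 24 to 836 features in these 12 comparisons, and of the 10 genes 1 in lymphoma (PRDM1) and 2 in myeloma minus lymphoma (PRDM1, SDC1).

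With single arrays as the unit, the wide arrays left out and the course as a random block, limma called 442 features in myeloma (4.57%) and 1130 in SKMM1 (11.7%). It called 20 between SKMM1 and KMS12 (0.207%) and 781 in SKMM1 against the control shRNA (8.07%), and again 0 of the 10 genes in each. The course means without the wide arrays gave 0 calls in each of these comparisons. This unit counts successive days of a course as separate arrays. An exact two-sided sign-flip test over the 8 course means, whose smallest possible p is 0.0078, passed 1246 features unadjusted and 0 after Benjamini-Hochberg adjustment, with adjusted p between 0.47 (SDC1) and 0.927 (PIM2) for the 10 genes. Over all 8 courses 291 features (3.01%) were below 0 and 48 (0.496%) above 0 in every course, and 0 of the 10 genes were among them. Without the wide arrays, 406 features (4.19%) were below 0 and 245 (2.53%) above 0 in all 7 remaining courses, also with 0 of the 10 genes.

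**Figure D1:**
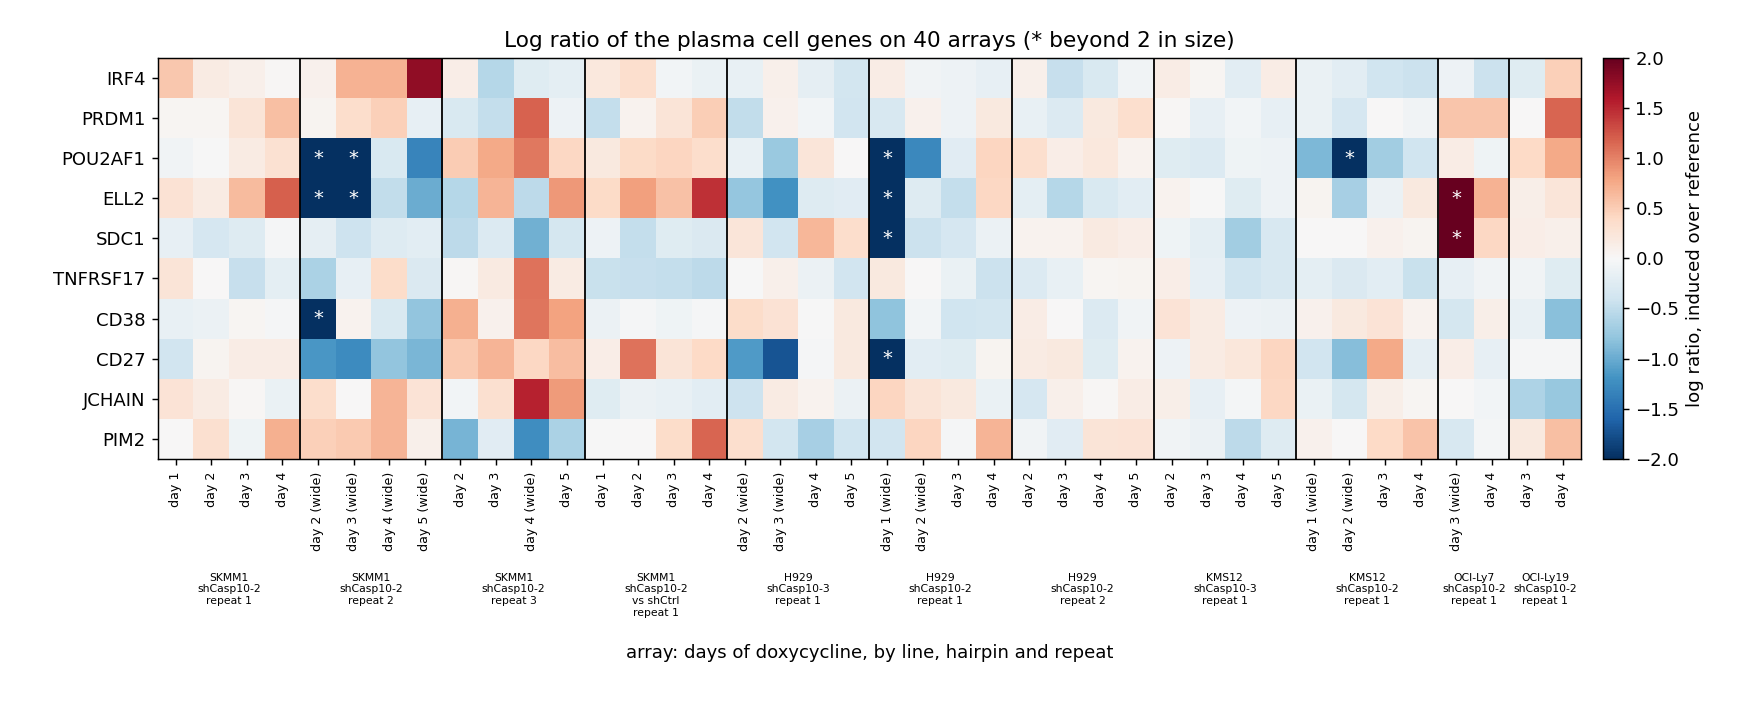
Log ratio (colour, induced over reference, limited to 2 in size, with an asterisk beyond it) of the 10 genes, in rows, on 40 arrays, in columns by course and day. The strong values sit on wide arrays, such as -6.90 for POU2AF1 on H929 day 1, while IRF4, PRDM1, TNFRSF17, JCHAIN and PIM2 stayed within 2 of 0 throughout.

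IRF4, the transcription factor at the head of the programme, stayed near 0 on most arrays. Its log ratio had a lowest, median and highest value of -0.57, 0.12 and 1.77 on the 12 SKMM1 arrays, of -0.47, -0.13 and 0.15 on the 12 H929 arrays and of -0.43, -0.18 and 0.16 on the 8 KMS12 arrays. The lines overlapped, and the high end of SKMM1 was repeat 2. That repeat read 0.08, 0.69, 0.70 and 1.77 on days 2 to 5, the last on an array labelled repeat 1. Repeat 3 read 0.13, -0.57, -0.24 and -0.20 over the same days, and repeat 1 read 0.54, 0.16, 0.10 and 0.02 on days 1 to 4. The 3 repeats did not share a direction: course means were 0.10, 0.49 and -0.22. Outside SKMM1, all 5 course means were below 0, from -0.35 in KMS12 with shCasp10-2 to -0.01 in KMS12 with shCasp10-3. The fitted log ratio in myeloma was -0.06 (95% CI -0.35 to 0.22, SE 0.12, n = 8 courses, adjusted p = 0.797 by limma), and -0.15 (95% CI -0.36 to 0.07, adjusted p = 0.45) in the 7 courses left without wide arrays, where 6 of 7 means were below 0. The 4 IRF4 probes ran together over the 32 arrays, with Spearman correlations between probes of 0.63 to 0.75, and their course means ranged between -0.18 and 0.06.

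PRDM1, the repressor that shuts down B cell genes, had 4 course means above 0 and 4 below. Its lowest, median and highest log ratios were -0.48, 0.05 and 1.18 on SKMM1 arrays, -0.49, -0.08 and 0.34 on H929 arrays and -0.33, -0.10 and 0.03 on KMS12 arrays. All 3 SKMM1 course means (0.30, 0.30 and 0.13) were above those of the other 2 lines, of which the highest was 0.06, but SKMM1 repeat 3 averaged -0.40 once its wide day 4 array, at 1.18, was left out. The log ratio was 0.24 in SKMM1 (95% CI -0.11 to 0.59, adjusted p = 0.94), and SKMM1 exceeded H929 by 0.30 (95% CI -0.20 to 0.80, adjusted p = 1) and KMS12 by 0.34 (95% CI -0.22 to 0.90, adjusted p = 1) in limma.

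POU2AF1 (OCA-B), the coactivator that octamer-binding POU proteins recruit in B cells, had its extremes on wide arrays. On SKMM1 arrays its log ratio ran from -2.35 through a median of 0.08 to 1.05, on H929 arrays from -6.90 through 0.04 to 0.43, and on KMS12 arrays from -2.11 through -0.33 to -0.08. The 8 KMS12 arrays were all below 0, with both hairpins, and so were the 6 of them that were not wide (-0.69 to -0.08); the 8 H929 arrays that were not wide had 7 above 0, and the 7 SKMM1 arrays that were not wide had 5 above 0. The KMS12 log ratio of -0.63 did not pass (95% CI -2.01 to 0.75, adjusted p = 1 by limma), nor did SKMM1 minus KMS12 at 0.38 (95% CI -1.40 to 2.16, adjusted p = 1). On single arrays without the wide ones SKMM1 minus KMS12 was 0.71 (95% CI 0.28 to 1.14, adjusted p = 0.0727 by limma). The 4 values below -2 were on wide arrays, and 2 of its 4 probes were unrelated over the 32 arrays (rho = -0.01).

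ELL2, an elongation factor that favours the secreted form of antibody heavy chain RNA in plasma cells, was measured by 1 probe. Its values were -5.38, -0.17 and 1.19 (lowest, median, highest) on SKMM1 arrays, -2.86, -0.28 and 0.42 on H929 arrays and -0.67, -0.06 and 0.20 on KMS12 arrays. The SKMM1 repeats parted widely: days 1 to 4 of repeat 1 read 0.30, 0.16, 0.62 and 1.19, whereas repeat 2 read -2.84, -5.38, -0.50 and -0.999 on days 2 to 5, and repeat 3 read -0.57, 0.68, -0.52 and 0.86 on those days. H929 was below 0 on 11 of 12 arrays, 7 of 8 without the wide ones. The SKMM1 log ratio of -0.79 (95% CI -2.32 to 0.73, adjusted p = 0.94 by limma) included the -2.91 of repeat 2. Leaving out wide arrays gave 0.36 (95% CI -0.10 to 0.82, adjusted p = 0.286), and turning the sign of repeat 2 gave 1.14 (95% CI -0.14 to 2.42, adjusted p = 0.216).

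**Figure D2:**
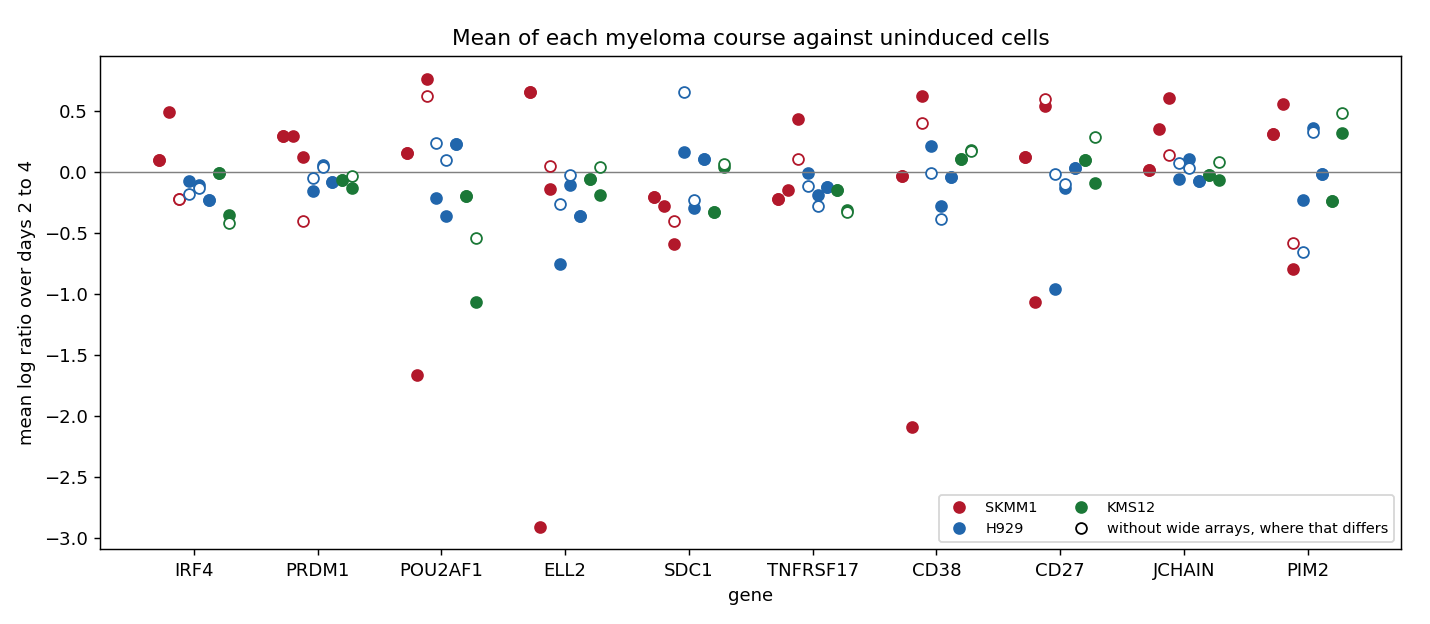
Mean log ratio over days 2 to 4 (y axis) of each gene (x axis) in the 8 myeloma courses, coloured by line, with open points for the same course without its wide arrays where that differs. The lowest means, -2.91 for ELL2, -2.08 for CD38, -1.67 for POU2AF1 and -1.07 for CD27, belong to SKMM1 repeat 2, followed by -1.06 for POU2AF1 in KMS12 with shCasp10-2.

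SDC1 (syndecan-1, CD138), the proteoglycan by which plasma cells are sorted, was below 0 on all 12 SKMM1 arrays, from -0.97 through a median of -0.27 to -0.02. On H929 arrays the lowest, median and highest values were -4.44, 0.07 and 0.66, and on KMS12 arrays -0.69, -0.04 and 0.08. SKMM1 therefore stood at the low end but overlapped the other 2 lines. Its 3 course means were -0.21, -0.28 and -0.59, giving -0.36 in SKMM1 (95% CI -0.80 to 0.08, adjusted p = 0.94 by limma) and -0.35 for SKMM1 minus H929 (95% CI -0.98 to 0.28, adjusted p = 1). The 4 arrays against the control shRNA were below 0 as well, so that SDC1 was below 0 on 16 of 16 SKMM1 arrays. This count takes arrays uncentred and the sign of every repeat as deposited. After centring, all 4 arrays of repeat 2, whose medians were below 0, were above 0 for SDC1 (0.05 to 0.61), and turning repeat 3 gave 0.03 in SKMM1 (95% CI -0.52 to 0.59, adjusted p = 0.941). The 3 SDC1 probes did not run together (rho from -0.27 to 0.27), and their means over courses were -0.34, -0.16 and -0.02.

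TNFRSF17 (BCMA), the receptor through which BAFF and APRIL keep plasma cells alive, was below 0 in 7 of 8 course means. Its lowest, median and highest values were -0.63, 0.02 and 1.08 on SKMM1 arrays, -0.44, -0.06 and 0.20 on H929 arrays and -0.45, -0.25 and 0.13 on KMS12 arrays. The course above 0 was SKMM1 repeat 3 at 0.43, or 0.11 without its wide day 4 array at 1.08, and the others ran between -0.31 and -0.01. The fitted log ratio in myeloma was -0.10 (95% CI -0.38 to 0.17, adjusted p = 0.705 by limma), and -0.15 without the wide arrays (95% CI -0.35 to 0.04, adjusted p = 0.409). Its 2 probes differed, with 7 of 8 course means below 0 for the first (mean -0.29) and 4 of 8 for the second (mean 0.12).

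CD38, an ectoenzyme and the target of antibody therapy in myeloma, had values of -6.02, 0.01 and 1.07 on SKMM1 arrays, -0.80, -0.04 and 0.37 on H929 arrays and -0.12, 0.12 and 0.28 on KMS12 arrays. KMS12 was the tightest line, with 6 of 8 arrays above 0. SKMM1 repeat 3 was high on days 2, 4 and 5 (0.72, 1.07 and 0.80), while repeat 1 stayed between -0.15 and 0.04. The myeloma log ratio of -0.13 (95% CI -0.86 to 0.60, adjusted p = 0.841 by limma) turned to 0.06 (adjusted p = 0.783) without the wide arrays, and to 0.14 without SKMM1 repeat 2, which held the -6.02.

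CD27, the costimulatory receptor for CD70, had values of -1.26, 0.11 and 0.69 on SKMM1 arrays, -4.45, -0.11 and 0.20 on H929 arrays and -0.85, 0.04 and 0.76 on KMS12 arrays. The 8 lowest values were on wide arrays, and 15 of the 21 arrays that were not wide were above 0. The log ratio in myeloma was -0.16 with all arrays (95% CI -0.69 to 0.37, adjusted p = 0.739 by limma) and 0.18 without the wide ones (95% CI -0.04 to 0.39, adjusted p = 0.396). One of its 4 probes averaged -0.99 over courses and correlated with the other 3 at rho between -0.06 and 0.13.

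JCHAIN, the joining chain of polymeric IgM and IgA, had 4 course means above 0 and 4 below. Its values were -0.14, 0.27 and 1.54 on SKMM1 arrays, -0.42, 0.09 and 0.43 on H929 arrays and -0.35, 0.00 and 0.41 on KMS12 arrays. SKMM1 arrays were above 0 on 10 of 12, with the high end in repeat 3 (1.54 on the wide day 4 array and 0.84 on day 5), and the course means of the 5 courses of the other lines lay between -0.07 and 0.11. The myeloma log ratio was 0.09 (95% CI -0.17 to 0.35, adjusted p = 0.719 by limma), and in SKMM1 it was 0.32 (95% CI -0.09 to 0.74, adjusted p = 0.94). The SKMM1 value was 0.08 without wide arrays (adjusted p = 0.738) and -0.08 with repeat 3 turned (adjusted p = 0.837). The 5 probes ran at rho between 0.11 and 0.74, with course means from -0.16 to 0.34.

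PIM2, a serine/threonine kinase that sustains growth and survival of myeloma cells, averaged 0.04 over myeloma (95% CI -0.42 to 0.49, adjusted p = 0.932 by limma), with 4 course means above 0 and 4 below. Its values were -1.24, 0.05 and 0.71 on SKMM1 arrays, -0.66, -0.05 and 0.68 on H929 arrays and -0.53, -0.03 and 0.56 on KMS12 arrays. The courses parted on day 4. With shCasp10-3 the log ratio was -0.66 in H929 and -0.53 in KMS12, against 0.71 and 0.68 in SKMM1 repeats 1 and 2, 0.68 and 0.25 in H929 repeats 1 and 2 and 0.56 in KMS12 with shCasp10-2. The hairpins did not overlap on day 4 except for SKMM1 repeat 3, which had shCasp10-2 and read -1.24 on a wide array and -0.63 on day 5. The 2 PIM2 probes correlated at rho = 0.90 over the 32 arrays, and this day 4 contrast was chosen after its values were seen.

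**Figure D3:**
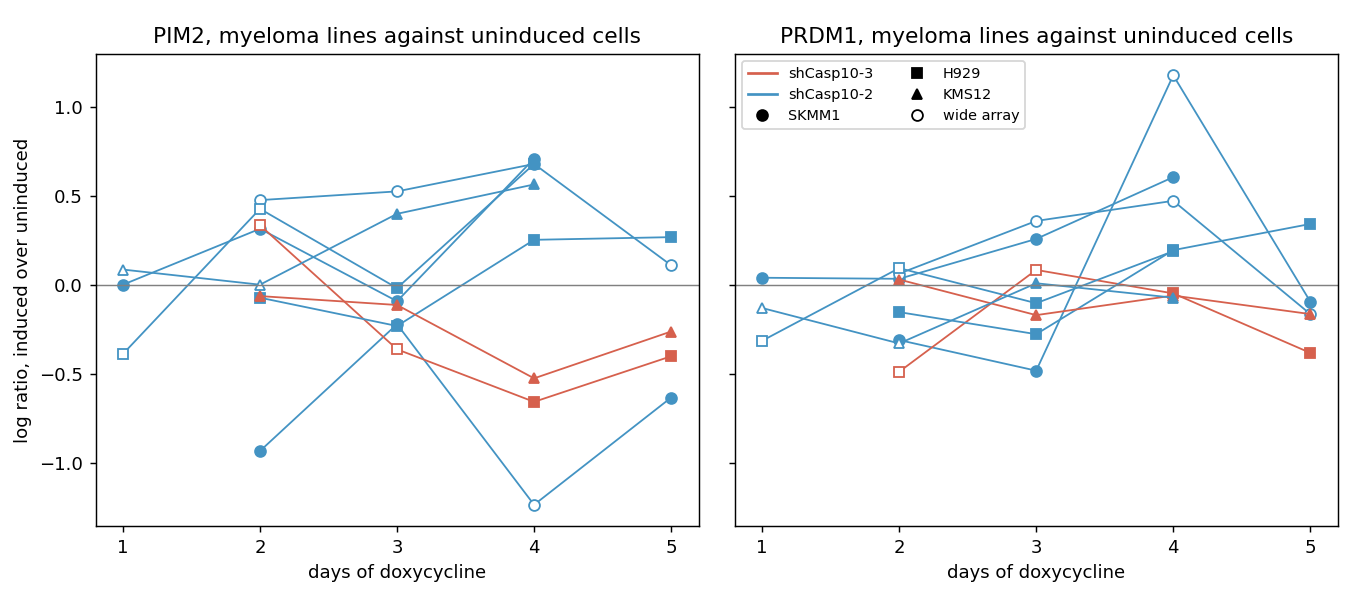
Log ratio (y axis, induced over uninduced) of PIM2 (left) and PRDM1 (right) by days of doxycycline (x axis) in the 8 myeloma courses, in 1 colour for each hairpin, 1 marker for each line and with open markers for wide arrays. On day 4 PIM2 was at -0.66 and -0.53 with shCasp10-3 and between 0.25 and 0.71 in 5 of 6 courses with shCasp10-2.

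The difference between the hairpins was estimated within H929 and KMS12, the lines that had both. Its error came from all myeloma courses in the fit, and so included the spread between the SKMM1 repeats. For PIM2 shCasp10-3 minus shCasp10-2 was -0.47 (95% CI -1.71 to 0.78, adjusted p = 1 by limma), and it was -0.77 (95% CI -1.62 to 0.08, unadjusted p = 0.0664, adjusted p = 0.786) without the wide arrays. For the other 9 genes the difference lay between -0.44 for CD27 (95% CI -1.92 to 1.04) and 0.29 for POU2AF1 (95% CI -1.75 to 2.33), all with adjusted p = 1. With 2 courses of shCasp10-3, intervals of this width do not show that the hairpins acted alike.

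SKMM1 with shCasp10-2 was compared with 2 references, uninduced cells and cells with an induced control shRNA. The labels do not say whether the induced RNA of the control shRNA course was that of repeat 1, so the 2 courses may share their induced samples. ELL2 read 0.38, 0.82, 0.59 and 1.46 on days 1 to 4 against the control shRNA, beside 0.30, 0.16, 0.62 and 1.19 against uninduced cells in repeat 1. Each of the 8 values was above 0 and the highest of each course was day 4. PIM2 read -0.01, 0.00, 0.36 and 1.16 against the control shRNA and 0.00, 0.31, -0.09 and 0.71 against uninduced cells. PRDM1 read -0.48, 0.08, 0.26 and 0.49 against the control shRNA and 0.04, 0.03, 0.26 and 0.60 against uninduced cells. As gene means, all 3 genes were thus at their highest on day 4 with both references. The third PRDM1 probe read 0.18, 0.819, 1.12 and 1.066 against the control shRNA, highest on day 3, while its other probes were highest on day 4. TNFRSF17, as the mean of 2 probes, was -0.45, -0.46, -0.47 and -0.52 against the control shRNA but 0.26, 0.00, -0.46 and -0.20 against uninduced cells. Its probes parted with both references. Against the control shRNA the first read -0.725, -0.871, -1.065 and -1.126 and the second -0.181, -0.048, 0.117 and 0.091. Against uninduced cells they read -0.131, -0.641, -1.015 and -0.748, and 0.648, 0.642, 0.088 and 0.356. As gene means, CD27 and POU2AF1 were above 0 on all 4 control shRNA arrays (0.14 to 1.09 and 0.19 to 0.42), and CD38 stayed between -0.12 and -0.02 there. The first POU2AF1 probe read -0.088, -0.572, 0.137 and -0.239 on these arrays.

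**Figure D4:**
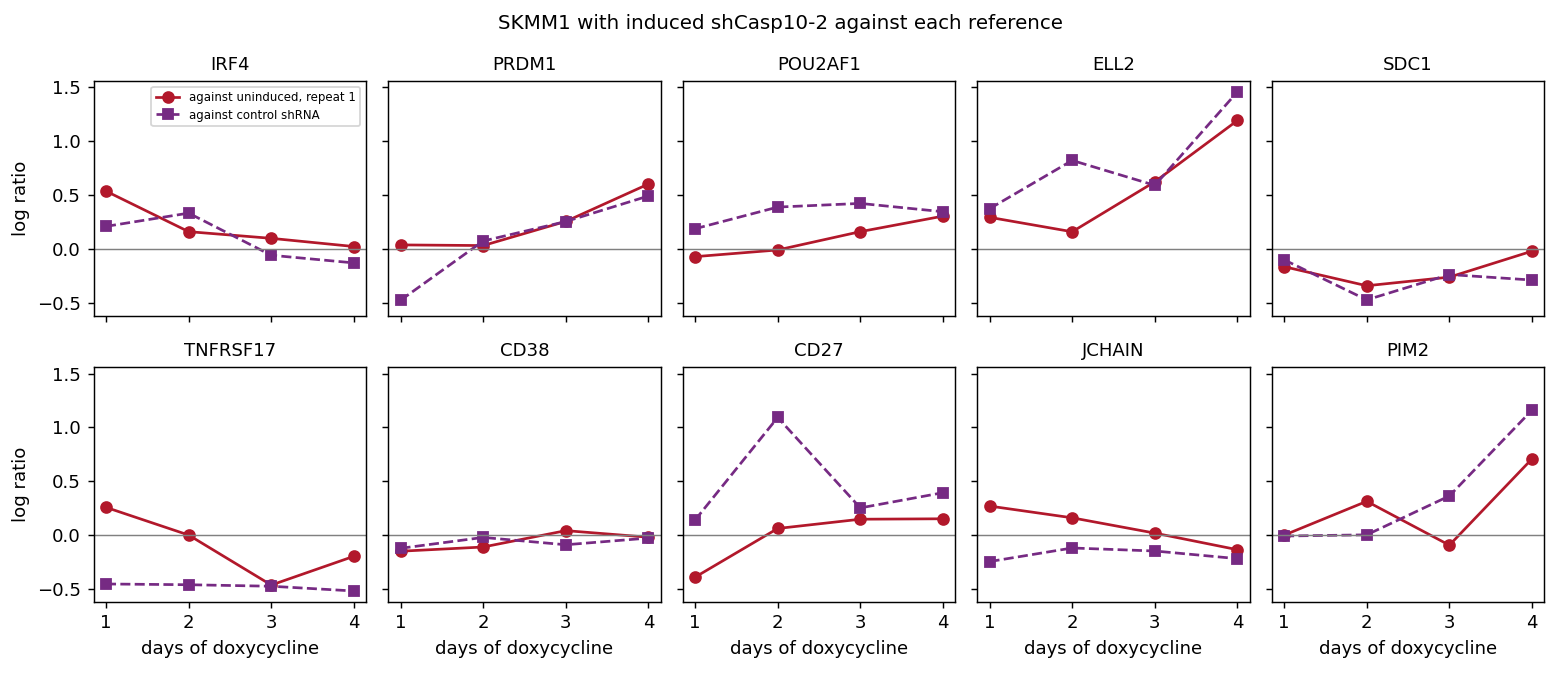
Log ratio (y axis) by days of doxycycline (x axis) for each of the 10 genes in SKMM1 with induced shCasp10-2, as circles and a solid line against uninduced cells (repeat 1) and as squares and a dashed line against the control shRNA. As gene means, ELL2, PRDM1 and PIM2 were highest on day 4 with both references. TNFRSF17, the mean of 2 probes that parted, stayed near -0.5 against the control shRNA.

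In limma, with the error borrowed from the 8 other courses, the log ratio against the control shRNA was 0.96 for ELL2 (95% CI -1.68 to 3.60), -0.48 for TNFRSF17 (95% CI -1.26 to 0.29), 0.51 for PIM2 (95% CI -0.76 to 1.77) and 0.28 for PRDM1 (95% CI -0.34 to 0.89), each with adjusted p = 1. On single arrays that were not wide the same values had adjusted p = 0.0779 for ELL2, 0.0784 for TNFRSF17, 0.429 for PIM2 and 0.439 for PRDM1. The control shRNA reference minus the uninduced reference lay between -0.51 and 1.75 over the 10 genes, all with adjusted p = 1. One setting called members: with array weights, limma called 4115 features in SKMM1, among them ELL2 (0.64, adjusted p = 0.00561), PIM2 (0.30, 0.0333) and PRDM1 (0.30, 0.00252) as higher and SDC1 (-0.21, 0.0331) and TNFRSF17 (-0.21, 0.0185) as lower. That fit gave SKMM1 repeat 1 a weight of 19.3, against 0.0798 and 0.254 for repeats 2 and 3, and stopped before its convergence tolerance, so these calls describe repeat 1 and not 3 repeats.

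In the lymphoma arrays the question was whether the same hairpin moved these genes outside myeloma. PRDM1 was at 0.55 and 0.55 on days 3 and 4 on the arrays labelled OCI-Ly7 and at 0.01 and 1.17 in OCI-Ly19. All 4 gene means were above 0, and the day 4 value of OCI-Ly19 was close to the 1.18 of SKMM1 repeat 3, the highest on the myeloma arrays. On the arrays labelled OCI-Ly7 the third PRDM1 probe read 1.87 and 1.435. The first read -0.15 and 0.103 there, and the second -0.075 and 0.113. In OCI-Ly19 the 3 probes read -0.007, -0.19 and 0.239 on day 3 and 1.267, 0.659 and 1.58 on day 4. Over days 3 and 4, the PRDM1 log ratio was 0.57 in lymphoma (95% CI 0.16 to 0.98, unadjusted p = 0.0126, adjusted p = 0.575 by limma, 2 lymphoma courses) and myeloma minus lymphoma was -0.46 (95% CI -0.92 to -0.00, adjusted p = 0.639). The error of this fit was pooled over 10 courses, myeloma included, so these intervals and p-values do not measure the spread between the 2 lymphoma lines alone. SDC1, as the mean of 3 probes, was at 2.14 and 0.41 on the arrays labelled OCI-Ly7 and at 0.13 and 0.11 in OCI-Ly19. These means were above 0 on all 4 arrays, but the probes parted. In that order the second probe read 6.11, 0.796, 0.589 and 1.708. The first read 0.449, 0.152, -0.115 and -1.247, and the third -0.144, 0.281, -0.092 and -0.135, so that both were below 0 in OCI-Ly19. Myeloma minus lymphoma was -0.88 for SDC1 (95% CI -1.69 to -0.07, adjusted p = 0.639), but -0.33 (SE 0.28, adjusted p = 0.616) without the wide arrays, of which OCI-Ly7 day 3 was one. JCHAIN was at 0.01 and -0.05 on the arrays labelled OCI-Ly7 and at -0.61 and -0.76 in OCI-Ly19, the lowest JCHAIN values of all 40 arrays, and myeloma minus lymphoma was 0.51 (95% CI -0.22 to 1.24, adjusted p = 0.64). ELL2 reached 2.64 and 0.69 on the arrays labelled OCI-Ly7 and 0.12 and 0.25 in OCI-Ly19. IRF4 read -0.10, -0.42, -0.24 and 0.48 in the same order, with a myeloma minus lymphoma difference of -0.04 (95% CI -0.79 to 0.72, adjusted p = 0.965). In OCI-Ly19 its 4 probes parted, at 0.334, 0.351, -0.561 and -1.088 on day 3 and at 0.79, 0.789, 0.771 and -0.418 on day 4.

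The change with day was fitted as a common slope over days 1 to 5 within the 8 courses. It called 1134 of 9681 features (11.7%), 1033 with rising and 101 with falling log ratios, and 0 of the 10 genes. Slopes were above 0 for 8 of 10, highest for POU2AF1 at 0.42 per day (95% CI 0.05 to 0.80, adjusted p = 0.092), ELL2 at 0.37 (95% CI 0.08 to 0.66, adjusted p = 0.0709) and CD27 at 0.32 (95% CI 0.06 to 0.57, adjusted p = 0.0743), beside a median of 0.28 over all features. Without the wide arrays, 8 of which were days 1 to 3, limma called 0 features (990 at an unadjusted p under 0.05) and the slopes of these 3 genes were 0.03, 0.18 and 0.06 per day. IRF4 had a slope of -0.01 per day (95% CI -0.13 to 0.11, adjusted p = 0.896), or -0.07 without the wide arrays (95% CI -0.18 to 0.03, adjusted p = 0.557).

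Over the 32 myeloma arrays, each centred on its median, MYC, a transcription factor of cell growth with 4 probes, correlated with IRF4 at a Spearman rho of 0.88. Of 4603 other named genes it ranked second, behind PDXDC2P-NPIPB14P (0.88, 1 probe), and ANKZF1, PAK2 and MRPS27 followed at 0.84 each. The lowest were PIK3CD, a lymphoid PI3-kinase subunit, and MMP11, a matrix protease, at -0.80 each. On the 21 arrays that were not wide IRF4 and MYC correlated at 0.72 (rank 4 of 4603), PDXDC2P-NPIPB14P at 0.76 (rank 1), and ANKZF1, PAK2 and MRPS27 at 0.60, 0.59 and 0.56. IRF4 and MYC lay on the same side of the array median on 27 of 32 arrays, and 20 of 24 steps between successive arrays of a course had the same sign for both. Centring subtracts the same median from both genes, and uncentred values correlated at 0.74, on all 32 arrays and on the 21. With the sign of SKMM1 repeat 2 or 3 turned the correlation was 0.88 and 0.87, and with both repeats left out it was 0.78 over 24 arrays. The arrays of a course share a line, a hairpin and a kind of reference, so these values describe likeness on these arrays and carry no test. In OCI-Ly19 MYC read -2.77 and -2.42, where IRF4, as the mean of 4 probes that parted, read -0.24 and 0.48. On the arrays labelled OCI-Ly7 both genes were below 0, MYC at -1.04 and -0.12 and IRF4 at -0.10 and -0.42.

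**Figure D5:**
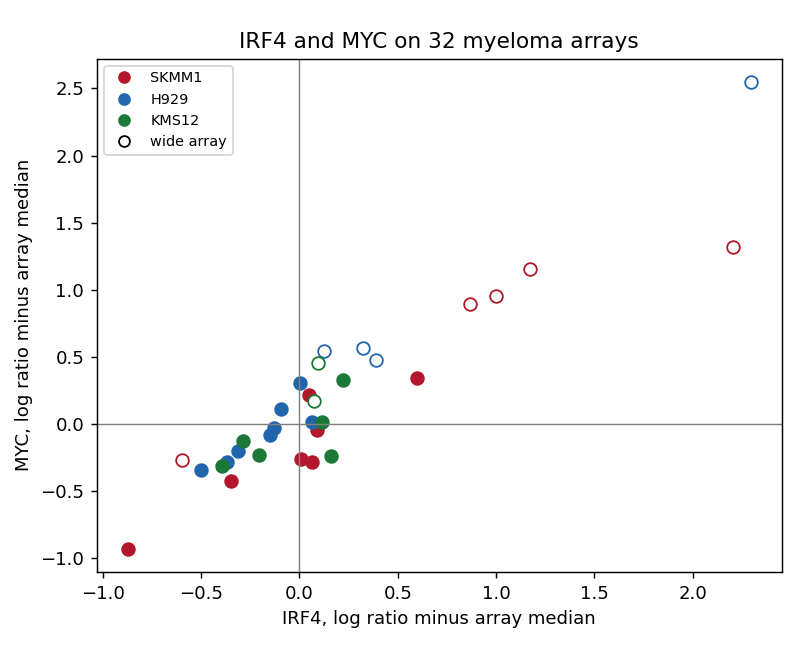
MYC (y axis) against IRF4 (x axis), each as the log ratio minus the median of its array, on 32 myeloma arrays coloured by line, with open circles for wide arrays. The points rise along a diagonal (rho = 0.88), and the filled circles alone give 0.72.

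Among the 45 pairs of the 10 genes, centred and without wide arrays, the median correlation was 0.03. PRDM1 and PIM2 ran closest at 0.75 over the 21 arrays, or 0.65 without centring. Over the 32 arrays they were at 0.63, or 0.41 without centring, below TNFRSF17 and JCHAIN at 0.67, or 0.49 without centring. In SKMM1 repeat 1 and both H929 shCasp10-2 repeats, PRDM1 and PIM2 were both higher on day 4 than on day 3, and both were lower in H929 with shCasp10-3. In SKMM1 repeat 2 both rose from day 3 to day 4 without centring. After centring PRDM1 went from 0.84 to 0.77 there and PIM2 from 1.01 to 0.98. From day 3 to day 4 the pair moved in opposite directions in SKMM1 repeat 3 and in KMS12 with either hairpin. With the sign of SKMM1 repeat 3 turned the pair was at 0.73, and with repeats 2 and 3 left out at 0.65 over 18 arrays. Over the 21 arrays TNFRSF17 and JCHAIN came next at 0.51, and PRDM1 and CD27 were the lowest pair at -0.51. The correlation of IRF4 with the other 9 genes ran from -0.24 with SDC1 to 0.28 with PRDM1 on these arrays.

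Genes around the 10 were described by lists, whose counts below 0 stand beside 81.3% of all features below 0 in the myeloma response, or 46.9% without wide arrays. Of 13 measured plasma cell genes outside the set, 11 had a myeloma log ratio below 0, with a median of -0.14 beside the -0.27 of all features, and 0 passed. The smallest p belonged to MZB1, a chaperone of antibody assembly, at -0.45 (SE 0.16, adjusted p = 0.682 by limma), and to ITGB7, an integrin that holds myeloma cells in marrow, at -0.34 (SE 0.14, adjusted p = 0.682). Of 4 immunoglobulin genes all were below 0 (median -0.17), with IGLL1 at -0.31 and IGHM at -0.24. On single arrays that were not wide IGLL1 was at -0.37 in myeloma (adjusted p = 0.0373 by limma), and it was below 0 in all 7 courses. The course means without wide arrays also gave -0.37, which did not pass (adjusted p = 0.257 by limma). In SKMM1 repeat 1 IGLL1 read -0.10, -0.41, -0.69 and -0.98 on days 1 to 4, and against the control shRNA -0.62, -0.96, -0.86 and -1.04. IGLL1 shares sequence with the lambda light chain constant genes, so its probes may read either.

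Of 21 measured partners, ligands and relatives, 20 were below 0 (median -0.42) and 0 passed, and without wide arrays 12 of 21 were below 0 (median -0.01). IRF1, an interferon-induced relative of IRF4, was at -0.64 (SE 0.25, adjusted p = 0.682 by limma) and CDK9, the kinase that works with ELL2, at -0.37 (SE 0.15, adjusted p = 0.682), below 0 in 8 of 8 courses. On single arrays 4 of the 21 passed in SKMM1 as higher, in a fit that called 11.7% of all features (805 higher and 325 lower): IKZF3 at 2.38 (adjusted p = 0.0224), CD70, the ligand of CD27, at 2.10 (0.0231), TNFSF13B (BAFF) at 2.08 (0.039) and TNFSF13 (APRIL) at 0.75 (0.0484), the last 2 being ligands of TNFRSF17. Those arrays came from repeats 1 and 3 only. IKZF3 read 4.58, 4.53, 3.78 and 5.56 in repeat 3, 0.57, 0.72 and 0.65 in repeat 1 after day 1, and -7.03, -2.59, -3.25 and -6.46 in repeat 2, so these calls depend on the repeat and on its sign. Other list genes past the threshold there were PAX5 at 1.22, HBB at 0.81, CD3E at -0.43 and IGLL1 at -0.74, and against the control shRNA CCND2 at -0.78, CD3G at -0.63 and IGLL1 at -0.95.

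Of 5 measured IRF4 target genes 4 were below 0, with SLC3A2, an amino acid transporter chain, at -0.22 (SE 0.12) and SQLE, of sterol synthesis, at 0.21 (SE 0.09, above 0 in 8 of 8 courses), both with adjusted p = 0.682 by limma. On single arrays that were not wide SLC3A2 was at -0.31 (adjusted p = 0.0493 by limma), below 0 in 7 of 7 courses. The course means without wide arrays gave -0.33 (adjusted p = 0.307 by limma), which did not pass. Of 14 measured B cell genes that PRDM1 opposes 13 were below 0 (median -0.63) and 0 passed, with ID3 at -0.30 and CD79A at -0.87, both with adjusted p = 0.682; without wide arrays the list's median was 0.02. With day, 10 of the 14 rose in limma, beside 11.7% of all features called, such as BCL6 by 0.50 per day (adjusted p = 0.0351) and CIITA by 0.55 (adjusted p = 0.0348), and 0 did so without the wide arrays. The slope also passed for 5 of 21 partners and relatives, 2 of 15 markers of other blood cells and 1 each of the 5 IRF4 target, 13 plasma cell and 4 immunoglobulin genes, to be read against the same 11.7%. Of 15 markers of other blood cells all were below 0 (median -0.54) and 0 passed, or 11 of 15 without wide arrays (median -0.10). NKG7 was at -0.93 and CD8A at -0.43 (adjusted p = 0.682 each by limma). On single arrays that were not wide NKG7 was at -0.43 (adjusted p = 0.0374 by limma). The course means without wide arrays gave -0.44 for NKG7 (adjusted p = 0.286 by limma), which did not pass. The part of the list genes in the values of the 10 genes was not tested.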

How the data were processed

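The values are log2 ratios of 2-colour arrays as the authors deposited them, 1 per probe and array; per the labels, Cy5 held induced cells and Cy3 uninduced cells or cells with a control shRNA. For the base of the log, the background correction, the normalisation and the direction of the ratio, the sources used here give nothing. No value was changed. Arrays were not centred, except for the correlations between genes and for the alternatives named as centred. Of 15246 probes, 10169 had 1 gene symbol in the platform annotation, 4 had several and 5073 had none; probes of a gene were averaged, giving 9681 features, of which 4604 were named genes. The number of arrays limits the precision, and depth does not apply.

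Samples were grouped by line, hairpin and reference, and by labelled repeat except for 5 arrays. A course is 1 line, hairpin and repeat. These 5 arrays, of day 1 or 5, were placed in courses by runs of database numbers in their labels. For SKMM1 day 5 this overrode the labels, as the arrays labelled repeats 1 and 2 went to repeats 2 and 3. None of the 5 entered the means over days 2 to 4. Course means were fitted with limma 3.58.1 (lmFit, eBayes) in R 4.3.3, over all features, with Benjamini-Hochberg adjustment and a threshold of 0.05; lymphoma comparisons used days 3 and 4. The series text calls repeats of lines biological and does not say whether cultures were separate, so p-values measure the spread between these samples. Alternatives were wide arrays left out, single arrays with the course as a random block (duplicateCorrelation), median centring, scaling by the MAD, array weights, the sign of SKMM1 repeat 2 or 3 turned, other days, the median over probes and each course left out. The genes and lists were chosen with earlier results of these data known. Named are the 10 genes, CASP10, of each list the genes past the threshold or else the 2 with the smallest p in the myeloma response, and the 5 genes with the highest and the 2 with the lowest correlation with IRF4. Of the list genes past the threshold with day or in SKMM1, those given were chosen after their values were seen, and so were the pairs among the 10 genes. Repeat numbers were not used to pair samples, except in the replicate block given below. Over the 2 numbers shared by SKMM1 and H929, deviations of same-numbered courses correlated at -0.603. This is a single value, because the deviations of 2 repeats mirror each other, and it cannot show whether same-numbered courses were run together.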

Additional observations from a re-analysis of the deposited data

Results flagged for a closer look

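Of 60 groups of 4 to 10 arrays or courses examined for a value far from the others, 7 held one, where chance gives about 1 in 20. On the H929 array with shCasp10-2, repeat 1, day 1, SDC1 was at -4.444 (the other 7 arrays from -0.43 to 0.18), POU2AF1 at -6.904 (others -1.28 to 0.43), CD27 at -4.454 (others -0.25 to 0.20) and ELL2 at -2.857 (others -0.57 to 0.42). That array had the lowest median of all 40, -2.15. Among the 8 myeloma course means, SKMM1 repeat 2 stood apart at -2.085 for CD38 (others -0.28 to 0.62) and -2.906 for ELL2 (others -0.75 to 0.66), and SKMM1 repeat 3 stood apart at 0.433 for TNFRSF17 (others -0.31 to -0.01).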

How the results depend on the processing

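With array weights limma called 4115 features in SKMM1, 2 against the control shRNA and 1 between its references; with single arrays and the course as a random block it called 442 in myeloma, 1130 in SKMM1, 20 in SKMM1 minus KMS12, 781 against the control shRNA, 1 in lymphoma and 1 in myeloma minus lymphoma, and 1 in lymphoma with SKMM1 repeat 3 turned. All were 0 in the fit of course means. Leaving out 1 course gave 0 to 91 calls in lymphoma and 0 to 82 in myeloma minus lymphoma, both highest without OCI-Ly19. The change with day kept 0 of its 1134 calls after centring, over days 2 to 4, with either SKMM1 repeat turned, and without wide arrays, centred or not. Leaving out 1 course gave 0 to 1733, with 0 without SKMM1 repeat 2, H929 shCasp10-2 repeat 1, H929 shCasp10-3 or KMS12 shCasp10-2, 374 without KMS12 shCasp10-3, 474 without SKMM1 repeat 1 and 1733 without H929 shCasp10-2 repeat 2. The cause was not tested.

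For the 10 genes in the myeloma response, and for PIM2 between hairpins, ELL2 and TNFRSF17 against the control shRNA, PRDM1 and SDC1 in myeloma minus lymphoma and POU2AF1 in SKMM1 minus KMS12, 242 of 286 alternatives kept the direction and none passed the threshold (smallest adjusted p 0.0727, limma). Outside these, array weights called ELL2, PIM2, PRDM1, SDC1 and TNFRSF17 in SKMM1. In the myeloma response the other 44, bar 3, were as follows. Without wide arrays the value was -0.04 for PRDM1, 0.06 for CD38, 0.07 for POU2AF1, 0.18 for CD27, -0.04 for PIM2 and 0.04 for ELL2; centred as well, -0.05, 0.05, 0.06, 0.16, -0.05 and 0.03; on single arrays -0.03, 0.05, 0.07, 0.17, -0.01 and 0.05. With SKMM1 repeat 2 turned it was -0.04 for PRDM1, 0.34 for CD38, 0.04 for POU2AF1, 0.08 for CD27, -0.09 for PIM2 and 0.20 for ELL2. With repeat 3 turned it was 0.00 for PRDM1 and -0.04 for JCHAIN. Array weights gave 0.02 for CD38, -0.01 for JCHAIN and 0.05 for ELL2. Over all days IRF4 was 0.00, PRDM1 -0.01 and PIM2 -0.01. Centring gave 0.03 for IRF4, scaling by the MAD 0.19 for CD38 and 0.03 for CD27, and the median over probes 0.02 for CD27. Leaving out 1 course gave -0.32 to 0.14 for CD38 and -0.06 to 0.17 for PIM2. SKMM1 minus KMS12 for POU2AF1 was -0.13 with repeat 3 turned and -0.13 to 1.09 with 1 course left out.

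A replicate block for SKMM1 minus H929 called 0 features (1 at an unadjusted p under 0.05, limma). The number of courses, 8 in myeloma and 2 in lymphoma, limits the precision.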
